A study of Homo sapiens with 6 samples.

Results

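The mRNAs of the cytosolic ribosomal proteins are described here: 83 of the 16834 genes in the deposited table. Members were taken by symbol, as RPL or RPS followed by a number with or without the endings A, X, L, L1 or AL, together with RPLP0, RPLP1, RPLP2 and RPSA, and pseudogenes were left out. The large (60S) subunit held 51 of them and the small (40S) subunit 32. Of the 83, 77 were core genes and 6 were paralogs, marked by a symbol ending in L, L1 or AL (RPL7L1, RPL22L1, RPL26L1, RPL36AL, RPL39L and RPS27L). RPL3L and RPL10L, which the same rule would take, had no row. FAU, which encodes a ribosomal protein fused to a ubiquitin-like protein, has a symbol outside the rule and is given separately.

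The libraries came from HEK293-T Flp-In cells, a human embryonic kidney line that grows with epithelial-like shape, carrying a single inserted copy of a construct named ccTaggedRP. From the CAG promoter, 1 bicistronic mRNA encodes a pair of tagged RPL10a proteins. The Flag-tagged protein carries a fragment of CDT1, which is degraded from late S phase to mitosis, and the HA-tagged protein carries a fragment of Geminin, which is degraded from late G1 into early S phase. Cells were not synchronized. RNA bound to the Flag-tagged ribosomes gave 3 Flag-IP libraries and RNA bound to the HA-tagged ribosomes gave 3 HA-IP libraries, all made after poly(A) selection. Both groups therefore share the same line, the same construct and the same promoter, and differ in the tag that was pulled down. The comparison asks which mRNAs were more abundant on the ribosomes of each tag. The labels do not say whether replicates were separate cultures, so p-values measure the spread between these samples, which may be technical. Normalized counts give relative amounts within a library, so a lower value does not show less mRNA on ribosomes per cell. Which cells gave the RNA of each tag was not tested.

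Ribosomal protein mRNAs are among the most abundant mRNAs of a growing cell. Most of them begin with a C followed by an unbroken run of pyrimidines, the 5′ terminal oligopyrimidine (TOP) motif, through which mTORC1 signalling and the LARP1 protein couple their translation to growth conditions. The proteins assemble with ribosomal RNA in the nucleolus and are exported as subunits, and free RPL5 and RPL11 bind MDM2, the ligase that degrades p53. Mutations in many of these genes cause Diamond-Blackfan anaemia.

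The start of several members is printed to show the pyrimidine run that most of the family shares. Some members show no long run at the annotated start, among those with large differences and those with small ones. Each window holds 30 bases of RefSeq sequence on GRCh38.p14, with 15 bases before an annotated transcription start and 15 from it, read 5′ to 3′ on the gene's own strand. Capitals mark the longest unbroken run of C or T in the window. RPL10A is the human gene of the protein that was tagged (chr6:35468386-35468415, plus strand). RPLP0 and RPLP1 encode the ribosomal stalk (chr12:120201097-120201126, minus strand, and chr15:69452803-69452832, plus strand). RPL13A is among the most abundant members per kb (chr19:49487593-49487622, plus strand).
RPL10A: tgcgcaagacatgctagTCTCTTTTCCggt
RPLP0: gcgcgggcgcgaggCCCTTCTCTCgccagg
RPLP1: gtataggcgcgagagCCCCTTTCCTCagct
RPL13A: cgacaaaaCCTCCTCCTTTTCCaagcggct

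For the small subunit, RPS12 had the lowest HA-IP to Flag-IP value of the family (chr6:132814554-132814583, plus strand) and RPS6 encodes the protein phosphorylated by S6 kinases (chr9:19380222-19380251, minus strand). RPL4 (chr15:66504841-66504870, minus strand), RPS4X (chrX:72277234-72277263, minus strand) and RPL3 (chr22:39319609-39319638, minus strand) lie at the other end of the order. RPL22L1 (chr3:170870181-170870210, minus strand) and RPS27L (chr15:63157463-63157492, minus strand) are paralogs.
RPS12: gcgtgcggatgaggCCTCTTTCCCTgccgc
RPS6: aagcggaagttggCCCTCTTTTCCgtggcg
RPL4: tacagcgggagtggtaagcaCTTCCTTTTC
RPS4X: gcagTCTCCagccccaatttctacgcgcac
RPL3: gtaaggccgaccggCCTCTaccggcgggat
RPL22L1: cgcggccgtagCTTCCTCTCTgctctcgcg
RPS27L: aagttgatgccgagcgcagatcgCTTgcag

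A window was given for 67 members, and 53 of these (79.1%) held a run of at least 8 C or T on the gene's strand, against 16.5% of the 27305 genes with a window. On the other strand the same run was found in 2 members (2.99%) and in 13.5% of all genes. The letters CTTT were present on the gene's strand in 47 members (70.1%) and in 15.2% of all genes, on the other strand in 4 members, and 45 members held both the run and CTTT, which may overlap. Of the paralogs, 2 of 5 with a window had the run. It was present in 25 of 29 members that were called higher in Flag-IPs below and in 28 of 38 that were not, so it was common in both. A match shows the letters in an annotated window and not the start that HEK293-T cells use. A window without the run likewise does not show that the mRNA lacks it.

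Ribosomal protein mRNAs took a smaller share of the HA-IP libraries. They held 2.53%, 2.24% and 2.14% of all normalized counts in the 3 Flag-IPs (mean 2.30% ± 0.202, SD, n = 3) and 1.71%, 1.83% and 1.95% in the 3 HA-IPs (mean 1.83% ± 0.118, SD, n = 3). The groups did not overlap. The 60S members took 1.64%, 1.46% and 1.40% of the Flag-IPs against 1.13%, 1.21% and 1.27% of the HA-IPs, also without overlap. The 40S members took 0.803% ± 0.0807 and 0.627% ± 0.0479 (SD, n = 3). The ratio of 60S to 40S counts was 1.83, 1.89 and 1.89 in Flag-IPs and 1.95, 1.93 and 1.88 in HA-IPs, and these ranges overlapped.

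**Figure D1:**
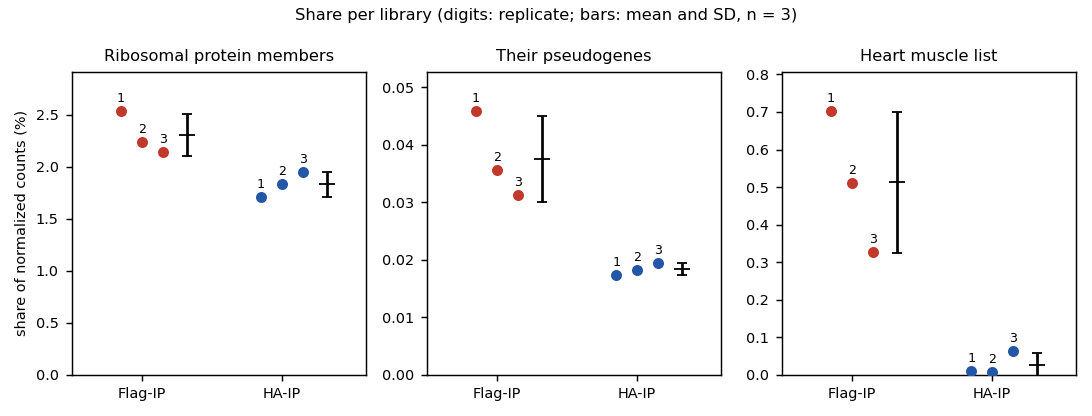
Share of normalized counts (%) in each of the 3 Flag-IP and 3 HA-IP libraries for the 83 ribosomal protein genes, for 74 pseudogenes named after them and for 18 heart muscle marker genes, with a separate axis for each and bars for the mean and SD (n = 3). In all 3 panels every Flag-IP lies above every HA-IP, at 2.14 to 2.53% against 1.71 to 1.95% for the members.

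Libraries of the same group stood apart from each other, and this touches the results that follow. Reads on the listed genes ranged from 23174532 to 44134833 per library. The library with the fewest reads, Flag-IP replicate 1, held the highest value of all 6 libraries for 77 of the 83 members. The library with the most reads, HA-IP replicate 1, held the lowest value for 71. Within its own group Flag-IP replicate 1 was highest for 78 members, whereas it was highest of the 3 Flag-IPs for 38.9% of all genes. Within the HA-IPs, HA-IP replicate 3 was highest for 77 members (36.5% of all genes) and HA-IP replicate 1 lowest for 74 (34.9% of all genes). Members thus shifted together between replicates of 1 tag, in size comparable to the difference between tags: the median member lay 0.43, 0.077 and 0.051 above its own mean over all libraries on the log2 scale in the 3 Flag-IPs, and at -0.38, -0.15 and -0.012 in the 3 HA-IPs. The part of read depth in this was not tested.

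**Figure D2:**
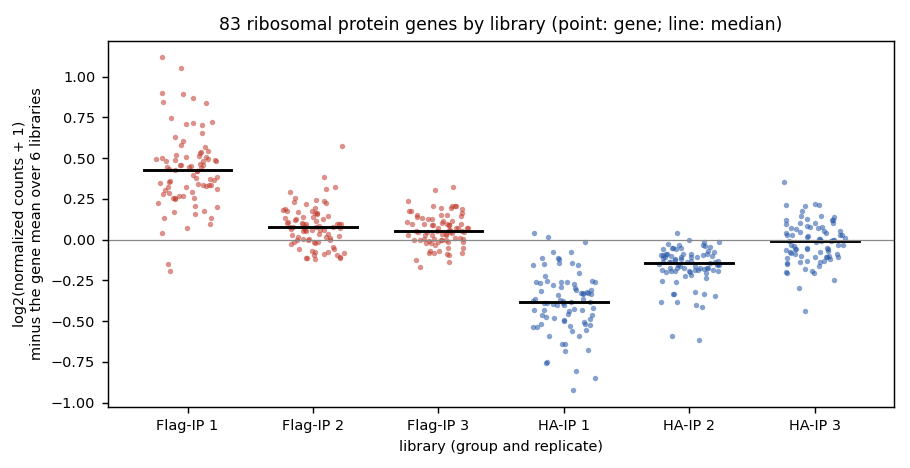
Each point is 1 of the 83 ribosomal protein genes in 1 library, as log2(normalized counts + 1) minus that gene's mean over the 6 libraries, with a black line at the median member. The highest median is 0.43 (Flag-IP replicate 1) and the lowest -0.38 (HA-IP replicate 1), while Flag-IP replicate 3 (0.051) and HA-IP replicate 3 (-0.012) lie close together.

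Cell type markers also differed between the tags. All 18 heart muscle genes in the table were called higher in Flag-IPs (background 7.10%), by a median of -4.51 on the log2 scale (HA-IP over Flag-IP). Their summed share was 0.701%, 0.512% and 0.326% of counts in the Flag-IPs against 0.0103%, 0.00606% and 0.0622% in the HA-IPs, so that Flag-IP replicate 1 was again the highest library. HA-IP replicate 3 was again the highest of the HA-IPs, as it was for 77 members. MYL7, NPPA, NPPB and PLN of that list had no row. Of 7 fibroblast genes 6 had a row and 5 were called higher in Flag-IPs, and of 5 endothelial genes 3 had a row and 2 were called. Of the 6 epithelial genes, CDH1 and EPCAM were called higher in HA-IPs (background 5.79%). KRT8, KRT18, KRT19 and CLDN7 were not called (adjusted p = 0.068 to 0.804 by limma). On average KRT8 was at 10165 normalized counts in Flag-IPs and 11097 in HA-IPs. Of 8 kidney genes 5 had a row, 3 of which were called higher in Flag-IPs (PAX2, PAX8 and SLC12A1), while UMOD, AQP2 and NPHS1, which define mature kidney segments, had none. The part of RNA from other cells in the ribosomal protein values was not tested.

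Across the family, mRNA levels were lower in HA-IPs. A gene was called when limma, fitted on log2(normalized counts + 1) over all 16834 genes, gave a Benjamini-Hochberg adjusted p no larger than 0.05. By this rule 36 of 83 members were called higher in Flag-IPs, which is 43.4% of members beside 7.10% of all genes tested. None was called higher in HA-IPs, where 5.79% of all genes were. Higher in Flag-IPs with an unadjusted p under 0.05 were 60 members (background 13.9%), and 0 were higher in HA-IPs at that level. From recovered reads, edgeR called 38 members and DESeq2 called 37 higher in Flag-IPs (background 7.31% for each), with 0 higher in HA-IPs by either. The sets differed between tools. RPL37, RPL26, RPS3A, RPL29, RPS18 and RPS16 were called by limma and not by DESeq2 (adjusted p = 0.068 to 0.168 by DESeq2). Among those called by DESeq2 and not by limma were RPLP2 and RPL3 (adjusted p = 0.025 and 0.029 by DESeq2). Over all genes 1196 were called higher in Flag-IPs and 975 in HA-IPs, and these became 1576 and 471 when every library was scaled to the same total, where 48 members were called higher in Flag-IPs and 0 in HA-IPs. The median member had a log2 fold change of -0.35 (HA-IP over Flag-IP), a level 21.5% lower, beside -0.0049 for all genes. By point estimate 82 of 83 members were lower in HA-IPs, compared with 51.0% of all genes. Every HA-IP lay below every Flag-IP for 47 members (background 16.1%), the groups overlapped for 36, and every HA-IP lay above for 0 (background 16.1%). The number called depended on single libraries: it was 16 without Flag-IP replicate 2 (background 3.07%), 10 without HA-IP replicate 1 (3.30%) and 14 without HA-IP replicate 2 (3.75%). It ranged from 33 to 49 without each of the others (5.33% to 8.96%). Without Flag-IP replicate 1 and HA-IP replicate 1 together, a choice made after the values were seen, 26 members were called (background 4.90%), 67 of 83 were lower in HA-IPs and the median was -0.14.

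**Figure D3:**
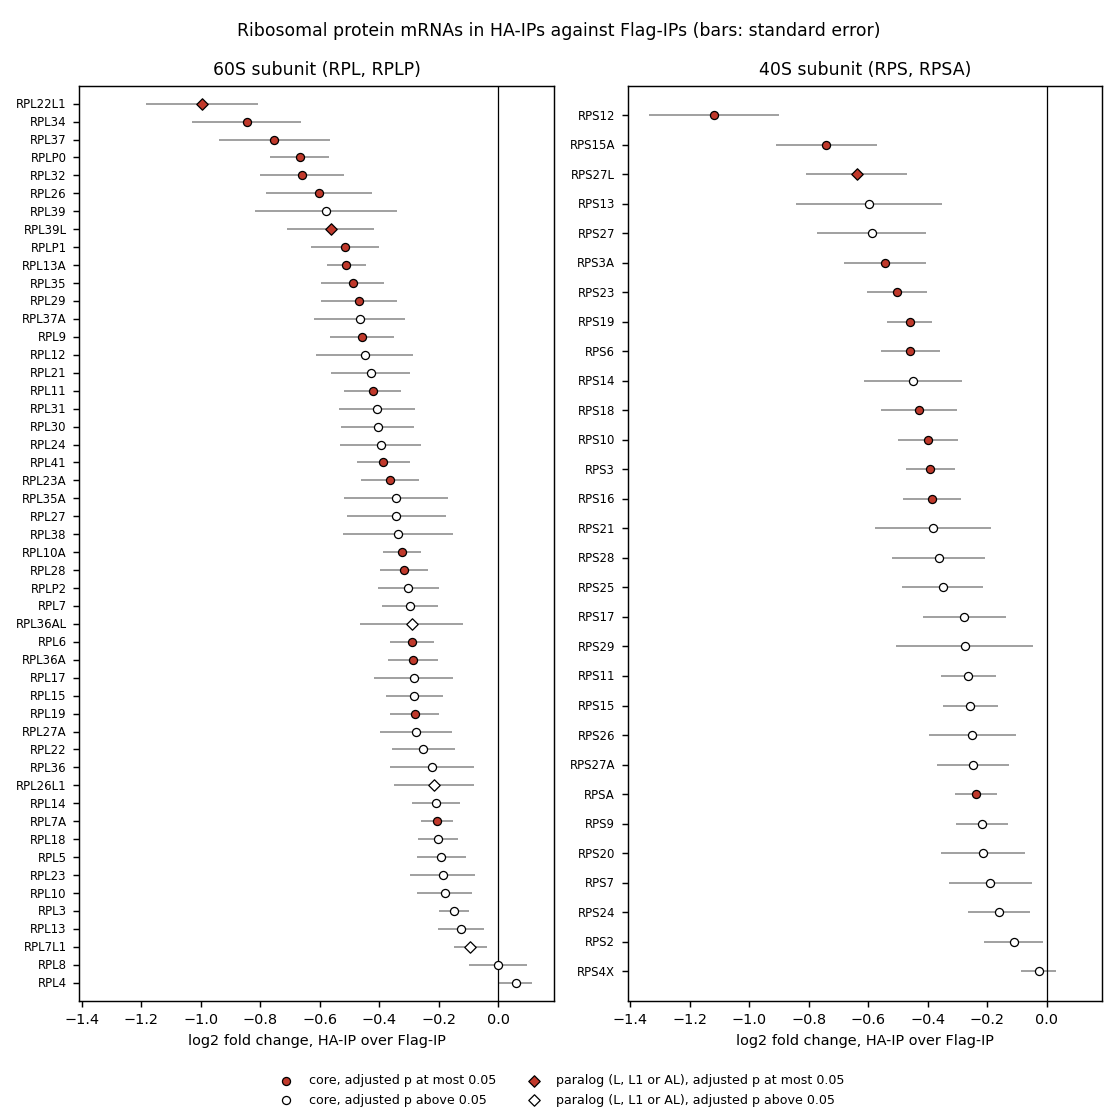
Log2 fold change (HA-IP over Flag-IP, points) with its standard error (bars) for 50 members of the 60S subunit and 30 of the 40S subunit, ordered from the lowest, with filled points for members called by limma and diamonds for paralogs. Values run from -1.12 for RPS12 to 0.059 for RPL4, and RPL4 alone lies above 0, though it was at -0.048 after quantile normalization.

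Called genes came from both subunits. Among 46 core 60S genes, 20 were called higher in Flag-IPs (background 7.10%), with a median of -0.34. Among them were RPL34, RPL37, RPLP0, RPL32, RPL26, RPLP1, RPL13A, RPL35, RPL29, RPL9, RPL11, RPL41, RPL23A, RPL10A, RPL28, RPL6, RPL36A, RPL19 and RPL7A. Among 31 core 40S genes, 13 were called higher in Flag-IPs (background 7.10%), with a median of -0.38. They included RPS12, RPS15A, RPS3A, RPS23, RPS19, RPS6, RPS18, RPS10, RPS3, RPS16 and RPSA. Of the 36 called members, 7 kept the call whichever library was left out (among them RPL22L1, RPLP0, RPL13A, RPS23 and RPS19), and 6 kept it in 5 of the 6 fits. No member lost its call in all 6.

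RPL10A is the human gene for RPL10a, of which the construct encodes a Flag-tagged and an HA-tagged copy from mouse cDNA. It had 8672, 8639.7 and 8499 normalized counts in the Flag-IPs against 6163, 7124 and 7391 in the HA-IPs, with no overlap between groups and little spread among the Flag-IPs. Its log2 fold change was -0.32 (SE 0.0636, adjusted p = 0.0085 by limma), and the adjusted p was 0.0528 without Flag-IP replicate 2. With the trends in GC content and transcript length taken out, it was -0.12 (adjusted p = 0.126). The construct encodes RPL10a on an mRNA of its own, and how many of its reads were counted on this gene was not tested.

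The stalk, a flexible arm of the 60S subunit that recruits elongation factors, is formed by RPLP0, RPLP1 and RPLP2 on a base with RPL12. RPLP0, the scaffold of the stalk, had 26323, 21419 and 18394 normalized counts in the Flag-IPs against 13403, 13710.0 and 14072 in the HA-IPs. Its groups were well apart, and the log2 fold change was -0.67 (SE 0.0989, adjusted p = 0.0021), with -0.52 (adjusted p = 0.0012) after removal of the GC and length trends. RPLP1 had 7536, 5931 and 6000.1 in the Flag-IPs against 3738, 4751 and 5175 in the HA-IPs (-0.51, SE 0.115, adjusted p = 0.015), and 0.061 was its adjusted p without HA-IP replicate 1. RPLP2, its dimer partner, had 3296, 2918 and 2855 against 2024, 2587 and 2789. Those groups did not overlap either, at -0.30 (SE 0.102), yet the adjusted p was 0.075 (0.0412 without HA-IP replicate 3). All 4 stalk genes had every HA-IP below every Flag-IP (background 16.1%), and 2 of 4 were called higher in Flag-IPs (background 7.10%).

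RPL5 and RPL11 join 5S rRNA in a particle that is incorporated late into the 60S subunit. RPL11 had 11984, 11955 and 11727 normalized counts in the Flag-IPs against 7307, 9363 and 10187 in the HA-IPs. The groups were separate, with a log2 fold change of -0.42 (SE 0.095, adjusted p = 0.015), and the adjusted p was 0.0739 without Flag-IP replicate 2. RPL5 had 15390.4, 12941 and 11755 in the Flag-IPs against 11136, 11445 and 12321 in the HA-IPs. Its groups overlapped through Flag-IP replicate 3, and -0.19 (SE 0.0833, adjusted p = 0.161) did not pass the test, although it did without that library (adjusted p = 0.0155).

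Of 9 proteins that line or surround the exit tunnel for the nascent chain, 4 were called higher in Flag-IPs (RPL19, RPL23A, RPL26 and RPL35; background 7.10%), with a list median of -0.36. None of the 9 was called after removal of the GC and length trends (background 7.39%), where the median was -0.21. With coding length in place of transcript length 1 was called (background 6.69%). RPL4, which reaches into the tunnel wall, had 46623, 42162 and 41996 normalized counts in the Flag-IPs against 44994, 44346 and 46737 in the HA-IPs. It was the sole member above 0 by point estimate, at 0.059 (SE 0.0553, adjusted p = 0.548), and turned to -0.048 under quantile normalization.

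Among the other large-subunit genes, RPL34 had the lowest value of the core set, with 1787, 1169.7 and 1153 normalized counts in the Flag-IPs against 571, 766 and 947 in the HA-IPs. The groups were apart, at -0.85 (SE 0.184, adjusted p = 0.0132), but the adjusted p was 0.0656 without HA-IP replicate 1 and 0.0552 without HA-IP replicate 2. RPL37 had 5438, 3562 and 3000.5 against 1855, 2362 and 2767 (-0.75, SE 0.186, adjusted p = 0.0229), again without overlap. RPL32 had 3628, 2525 and 2356 against 1541, 1755 and 2022 (-0.66, SE 0.141, adjusted p = 0.0122). Flag-IP replicate 1 was the highest library for each of these, and without HA-IP replicate 1 the adjusted p was 0.115 for RPL37 and 0.0726 for RPL32. Without HA-IP replicate 2 it was 0.0783 and 0.0564, and RPL37 was at 0.0694 without Flag-IP replicate 2. RPL26, which also binds the p53 mRNA, had 3149, 1859 and 1732 against 1353, 1318 and 1625. Its log2 fold change of -0.60 (SE 0.178, adjusted p = 0.0465) lay at the threshold, and the adjusted p was 0.0612 to 0.169 without Flag-IP replicate 2 or any 1 of the HA-IPs. It was 0.0995 after removal of the GC and length trends, at -0.35, and 0.0584 under quantile normalization.

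RPL13A, known for a role in translational silencing of inflammatory mRNAs, was both abundant and steady. It had 47982, 52294 and 52820.1 normalized counts in the Flag-IPs against 32583, 37868 and 37145 in the HA-IPs. Here Flag-IP replicate 1 was the lowest of the Flag-IPs and the groups were still far apart. The log2 fold change was -0.51 (SE 0.0656, adjusted p = 0.00095), and it was -0.44 to -0.55 when single libraries were left out and -0.36 (adjusted p = 0.0019) after removal of the GC and length trends.

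At the other end of the 60S order, RPL3, whose protein lies near the peptidyl transferase centre, had 61703, 64055 and 63930.2 against 55463, 56423 and 59300.3 normalized counts. Its groups did not overlap, but the difference was small at -0.15 (SE 0.0505, adjusted p = 0.0786, and 0.0362 without Flag-IP replicate 3). RPL10, which completes the maturation of the 60S subunit, had 8135, 6268 and 6162 against 5779.9, 5812 and 6417 (-0.18, SE 0.0923, adjusted p = 0.233). RPL13 had 12454, 15132 and 15900.0 against 12749, 13473 and 13431. It was at -0.13 (SE 0.0777, adjusted p = 0.334), where Flag-IP replicate 1 was the lowest of all 6 libraries and the adjusted p without it was 0.0086. RPL8 had 24641, 19137 and 18840.5 against 19041, 20295 and 22894, a log2 fold change of -0.0020 (SE 0.0972, adjusted p = 0.993) whose sign changed with the scaling.

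In the 40S subunit, 7 of 14 proteins of the head were called higher in Flag-IPs (background 7.10%), with a median of -0.37. They included RPS12, RPS19, RPS18, RPS10, RPS3 and RPS16. Of 17 proteins of the body and platform 6 were called higher in Flag-IPs (background 7.10%), with a median of -0.38. RPS15A, RPS3A, RPS23, RPS6 and RPSA were among them. RPS12, a head protein, had 2952, 1701 and 1602 normalized counts in the Flag-IPs against 717, 901 and 1215 in the HA-IPs. Every HA-IP was below every Flag-IP, but the values within a tag also ranged widely. The log2 fold change was -1.12 (SE 0.217, adjusted p = 0.0082), a 2.17-fold higher level in Flag-IPs, and it was -0.66 (adjusted p = 0.0013) without both replicates numbered 1. The adjusted p was 0.0511 without HA-IP replicate 1 alone.

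RPS15A had 3029.8, 1714 and 1784 against 1166, 1244 and 1368 (-0.74, SE 0.169, adjusted p = 0.0163), and the adjusted p was 0.0845 and 0.0696 without HA-IP replicates 1 and 2 in turn. RPS6 had 14826, 12055 and 10621 against 8377, 8984 and 9717, also without overlap. Its log2 fold change was -0.46 (SE 0.0998, adjusted p = 0.0132), with adjusted p-values of 0.0572, 0.078 and 0.0612 without Flag-IP replicate 2, HA-IP replicate 1 and HA-IP replicate 2.

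A large difference did not always pass the test. RPS13, which takes part in a bridge to the 60S subunit, had 1866, 844 and 857 against 610.4, 749.7 and 848 (-0.60, SE 0.245, adjusted p = 0.138). Flag-IP replicate 1 was far above every other library there, while the remaining Flag-IPs lay on either side of HA-IP replicate 3, and the adjusted p was 0.0493 without Flag-IP replicate 3. RPS27, a zinc finger protein, had 3799.9, 3291 and 3223 against 1549.6, 2513 and 3045. Its groups were separate, but the HA-IPs spread widely and -0.59 (SE 0.183) had an adjusted p of 0.0566 (0.0156 without HA-IP replicate 3). RPS27A, made as a fusion with ubiquitin, had 5061, 3685 and 3491 against 3017, 3417 and 3768 (-0.25, SE 0.121, adjusted p = 0.215), with overlap.

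The 40S members nearest to 0 were RPS20, RPS7, RPS24, RPS2 and RPS4X, and none passed the test. RPS4X, an X-linked gene, had 36978, 33719.9 and 31654 normalized counts in the Flag-IPs against 33308, 32546 and 34352 in the HA-IPs, with complete overlap at -0.028 (SE 0.0599, adjusted p = 0.812). RPS2, at the mRNA entry channel, had 23633, 27639.7 and 33721 against 25565, 26692 and 25601 (-0.11, SE 0.0986, adjusted p = 0.518). Flag-IP replicate 1 was its lowest library, and without that library the adjusted p was 0.0382 at -0.23. The log2 fold changes of RPS20, RPS7 and RPS24 were -0.21, -0.19 and -0.16, with adjusted p-values of 0.364, 0.425 and 0.363.

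The 6 paralogs ranged from -0.996 to -0.094 with a median of -0.43, and 3 were called higher in Flag-IPs (background 7.10%). RPL22L1, the paralog of RPL22, had 144, 128 and 96.8 normalized counts in the Flag-IPs against 62.8, 55.5 and 62.9 in the HA-IPs. The groups were apart, at -0.996 (SE 0.188, adjusted p = 0.0071), and the value was -0.94 (adjusted p = 0.0037) after removal of the GC and length trends. RPL22 itself was at -0.25 (adjusted p = 0.146). RPS27L, a target of p53, had 316, 201 and 221 against 139.7, 152 and 174 (-0.64, SE 0.168, adjusted p = 0.030), near the -0.59 of RPS27. RPL39L had 261, 235 and 229 against 131, 191 and 172 (-0.56, SE 0.147, adjusted p = 0.029), near the -0.58 of RPL39 (adjusted p = 0.140). The call of RPS27L was lost without Flag-IP replicate 1, HA-IP replicate 1 or HA-IP replicate 2 (adjusted p = 0.057, 0.124 and 0.105), and that of RPL39L without Flag-IP replicate 2, HA-IP replicate 1 or HA-IP replicate 3 (0.0946, 0.108 and 0.0596). After removal of the GC and length trends RPL39L was at -0.36 (adjusted p = 0.082) and RPS27L at -0.68 (adjusted p = 0.0124). With coding length in place of transcript length RPL39L was at -0.24 (adjusted p = 0.206) and RPS27L at -0.39 (adjusted p = 0.0556), and under quantile normalization their adjusted p-values were 0.0656 and 0.0611. RPL36AL (-0.29, adjusted p = 0.308), RPL26L1 (-0.22, adjusted p = 0.337) and RPL7L1 (-0.094, adjusted p = 0.303) did not pass. These paralogs resemble their parent genes in sequence, and how reads that match both were counted is not given in the sources used here.

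Levels per kb of transcript, taken as the mean normalized count over the canonical transcript's length, put the paralogs RPS27L (32.8), RPL22L1 (48.2) and RPL39L (279) lowest. RPS2 (28722), RPL13A (38553) and RPL3 (46409) were the highest. The 3 lowest were all called higher in Flag-IPs, and of the 3 highest RPL13A was. This order depends on the length used. Per kb of coding sequence RPL22L1 (250), RPL26L1 (712) and RPS27L (796) were lowest, and RPL26L1 was not called. RPL41 (44049), RPL3 (49748) and RPL13A (71344) were then highest, and RPL3 was not called.

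FAU, which falls outside the symbol rule, encodes a ribosomal protein of the 40S subunit. It had 1882, 1784 and 1693 normalized counts in the Flag-IPs against 1241, 1436 and 1484 in the HA-IPs (-0.37, SE 0.0742, adjusted p = 0.0096), and every HA-IP was below every Flag-IP. The value was -0.11 (adjusted p = 0.222) after removal of the GC and length trends, and the adjusted p was 0.0537 without Flag-IP replicate 2.

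Of 18 members whose mutations cause Diamond-Blackfan anaemia, a failure of red cell production, 5 were called higher in Flag-IPs (background 7.10%). These were RPS10, RPS19, RPL11, RPL26 and RPL35. The list had a median of -0.34. That is near the median of all 83 members. RPS19, the gene most often mutated, had 10722, 9308 and 8958 against 6365, 7219 and 7469.6 normalized counts, a log2 fold change of -0.46 (SE 0.0753, adjusted p = 0.0034).

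The other mRNAs known to carry a TOP motif, mostly translation factors, were compared as a group of 17 that includes FAU. Their median was -0.021, with 4 called higher in Flag-IPs (background 7.10%) and 0 in HA-IPs (background 5.79%) by limma. Higher in HA-IPs were 3 at an unadjusted p under 0.05, EEF2 by edgeR, and EEF2 and PABPC1 by DESeq2. After removal of the GC and length trends 3 were called higher in each group, those in HA-IPs being EEF2, PABPC1 and RACK1. TPT1, a growth-related calcium-binding protein, had 17324, 10816 and 8486 normalized counts in the Flag-IPs against 3642, 3752 and 5218 in the HA-IPs. It was at -1.49 (SE 0.208, adjusted p = 0.0015), lower than any member. EIF3H, a subunit of initiation factor eIF3, was at -0.36 (SE 0.106, adjusted p = 0.0458). EEF1A1, the elongation factor that delivers aminoacyl-tRNA, was at 0.031 (SE 0.0650, adjusted p = 0.806), and EEF2, which drives translocation, at 0.19 (SE 0.0609, adjusted p = 0.0688). PABPC1, the poly(A)-binding protein, was at 0.15 (SE 0.0467, adjusted p = 0.0557). For EEF2 and PABPC1 every HA-IP was above every Flag-IP, opposite to the members. Mitochondrial ribosomal proteins, which are translated in the cytosol but belong to another ribosome, had a median of -0.12 over 78 genes. By limma 9 were called higher in Flag-IPs, which is 11.5% beside 7.10% of all genes. None was called higher in HA-IPs by limma, edgeR or DESeq2, nor at an unadjusted p under 0.05. After removal of the GC and length trends 5 were called higher in Flag-IPs (background 7.39%) and 3 in HA-IPs (background 8.15%). The median was then 7.1e-05.

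Coding length moved with the difference. The median coding length was 453 bases for members, without the stop codon, and 1431 for all protein-coding genes in the table. Other protein-coding genes were also lower in HA-IPs when short. Below 300 bases the 11 members had a median of -0.47 and 255 other genes one of -0.23. From 300 to 450 bases the medians were -0.34 (30 members) and -0.21 (569 genes), and from 450 to 600 they were -0.40 (19 members) and -0.13 (778 genes). From 600 to 800 bases they were -0.29 (16 members) and -0.096 (1222 genes), and from 800 bases on -0.19 (7 members) and 0.038 (10952 genes). In each bin the median member was thus lower than the median of the other genes. The last bin has no upper bound, so its other genes are not of like length. The longest member has 1281 coding bases, below the median of 1431 for all protein-coding genes. Across members, log2 fold change and coding length had a Spearman correlation of 0.37 (83 genes), with 0.47 in the 46 core 60S genes and 0.11 in the 31 core 40S genes. Over the 83 members it was 0.38 with the mean normalized count, 0.10 with transcript length and 0.18 with GC content. These are correlations across genes measured in the same libraries, and genes are not independent replicates.

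**Figure D4:**
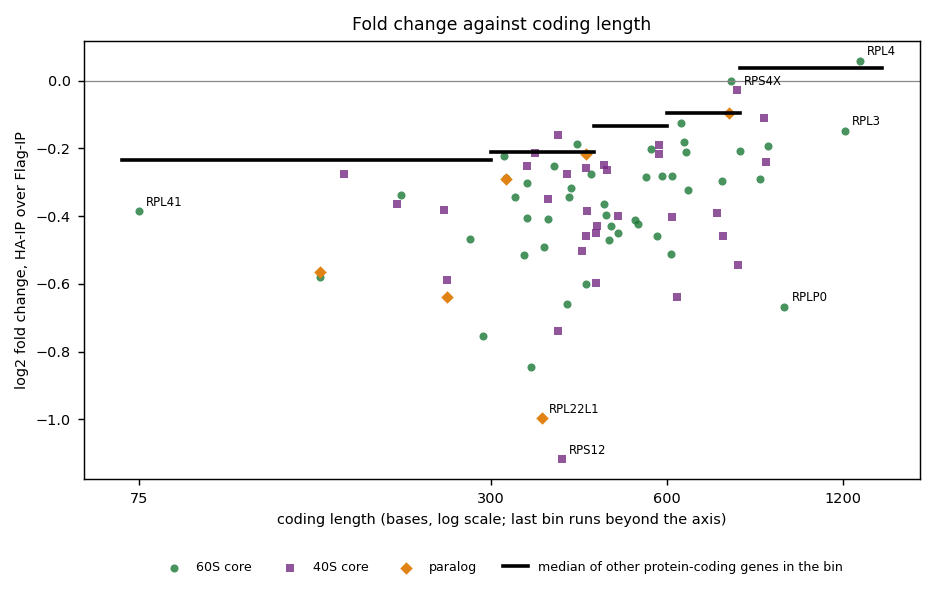
Log2 fold change (HA-IP over Flag-IP) of the 83 ribosomal protein genes against coding length in bases (log axis), by class, with black lines at the median of other protein-coding genes in 5 length bins. The lines rise from -0.23 below 300 bases to 0.038 from 800 bases on, and most members lie under them.

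When the dependence on GC content and on transcript length was fitted in each library over all genes and subtracted, the median member was at -0.18, beside 0.014 for all genes, and 71 of 83 members were lower in HA-IPs. The number called higher in Flag-IPs was 23 (background 7.39%), from 12 of the core 60S genes, 9 of the core 40S genes and 2 of the paralogs, and none was called higher in HA-IPs (background 8.15%). RPL37A, RPL15 and RPL14 passed after this step and not before it. With coding length in place of transcript length they did not pass (adjusted p = 0.157, 0.107 and 0.326 by limma). RPL10A, RPL26, RPL35, RPL7A and RPS10 were among those that passed before it and not after. Of these, RPL10A and RPL35 did pass with coding length (adjusted p = 0.0149 and 0.0386). The calls were 2 of 4 in the stalk, 4 of 14 in the 40S head, 5 of 17 in the 40S body and 3 of 18 among the anaemia genes. RPL41, the shortest member and called before it, was at -0.16 (adjusted p = 0.124), and at 0.026 (adjusted p = 0.892) with coding length in place of transcript length.

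**Figure D5:**
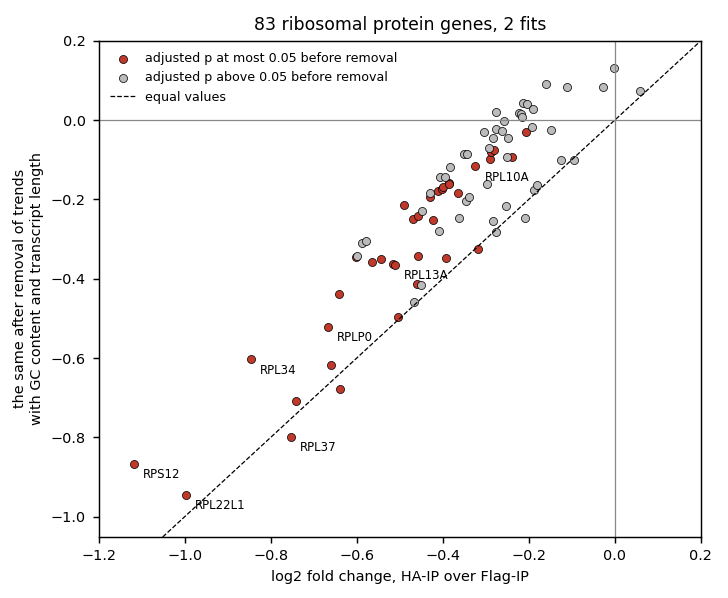
Log2 fold change (HA-IP over Flag-IP) of the 83 ribosomal protein genes before (horizontal) and after (vertical) removal of trends with GC content and transcript length, with a dashed line where both are equal. Most points lie above the line, the medians being -0.35 before and -0.18 after, and RPS12 and RPL22L1 remain lowest at -0.87 and -0.94.

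Pseudogenes named after members, most of them intronless copies of the mRNAs, were compared because their reads can be shared with the parent genes. Of 74 in the table, 33 were called higher in Flag-IPs by limma (background 7.10%), with a median of -1.07. None was higher in HA-IPs by limma, edgeR or DESeq2 or at an unadjusted p under 0.05. Their summed share of counts was 0.0458%, 0.0357% and 0.0312% in the Flag-IPs against 0.0174%, 0.0182% and 0.0195% in the HA-IPs. RPS3AP26, chosen here after its values were seen, had 1195, 631 and 476 normalized counts against 21.2, 20.8 and 150.0, and RPLP0P6, chosen likewise, had 2121, 1338 and 874 against 104, 103 and 201. Of the reads on RPS3A and its pseudogenes, 11.8% lay on pseudogenes in Flag-IPs and 1.88% in HA-IPs, and for RPLP0 these were 6.57% and 1.18%. With the pseudogene counts added to each parent, 39 members were called higher in Flag-IPs (background 6.97%), and RPLP0 was at -0.75 (adjusted p = 0.0016).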

How the data were processed

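Poly(A)-selected RNA from 3 Flag-IPs and 3 HA-IPs was sequenced, and per the labels and the study's methods the authors used Trimmomatic 0.36 for trimming, STAR 2.5.2b for mapping to GRCh38 and featureCounts of Subread 1.5.2 for counts per gene. Strand and multi-mapping settings are not given in the sources used here. The deposited signal values are DESeq2 normalized counts, in which the authors divided each library's counts by 1 size factor after leaving out genes with few reads, and the authors' own fold changes and adjusted p-values in the same table were not used. Members and gene lists were chosen with earlier results of these data known.

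Values were tested as log2(normalized counts + 1), from the deposited normalized counts, by limma 3.58.1 with an intensity trend (R 4.3.3, two-sided, Benjamini-Hochberg adjustment over all 16834 genes, called at an adjusted p no larger than 0.05). A difference is HA-IP minus Flag-IP. It understates the change of low genes. In all 6 libraries every value was a whole multiple of the value of 1 read (100% within 0.01 reads). The recovered reads gave 23174532 to 44134833 per library and served edgeR 4.0.16 and DESeq2 1.42.0. In HA-IP replicate 2 that value was 0.990, too close to 1 for an automatic check of this step. Transcript length, coding length and GC content came from GENCODE 44 canonical transcripts, which held 16683 of the 16834 identifiers and all 83 members. Trends were natural splines with 5 degrees of freedom, fitted by robust regression (MASS). Genes were named by role, by paralog status and as the 5 lowest and 5 highest core genes of each subunit, plus 3 at each end of the level per kb, and other members are named where a list count is given. Some items are not reported here and count only in totals. Other settings were a pseudocount of 0.1 or 10, a minimum mean of 50, other scalings, no intensity trend, a replicate block, added pseudogene counts and leaving out libraries. The fits were tested on simulated data.

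Whether same-numbered libraries deviate together was checked over 13141 genes. The correlations of their deviations were -0.16, 0.031 and -0.31, and the libraries were treated as unpaired. Between libraries with unlike numbers the correlations ran from -0.24 to 0.30. The highest was between Flag-IP replicate 1 and HA-IP replicate 3. With so few libraries a tag, these correlations cannot exclude a pairing.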

Additional observations from a re-analysis of the deposited data

How the results depend on the processing

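No setting that was run called a member higher in HA-IPs. Members called higher in Flag-IPs numbered 36 by limma (background 7.10%), with 38 by edgeR and 37 by DESeq2 (background 7.31% for each). Without the intensity trend limma called 0 (background 1.08%). In that fit 35 had an unadjusted p under 0.05 (background 12.6%) and the smallest adjusted p was 0.0576. The count was 21 with a replicate block (background 5.41%) and 23 with the GC and transcript length trends removed (7.39%). It was 20 with both (6.41%) and 23 with GC and coding length trends removed (6.69%). Leaving out libraries gave 10 to 49 calls (background 3.07% to 8.96%). The medians then ranged from -0.47 to -0.14 for all members, -0.45 to -0.14 for the 60S core, -0.48 to -0.12 for the 40S core and -0.54 to -0.23 for the paralogs, with the values nearest 0 when both replicates numbered 1 were left out. With GC and transcript length trends removed, with or without the replicate block, the median was -0.16 for the 40S core and -0.23 for the paralogs (-0.16 for the paralogs with coding length). The cause of these shifts was not tested.

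Over all 83 members the sign changed for 11 with GC and transcript length trends removed (none of them called before), for 7 with coding length (RPL41 among them, which had been called, at 0.026), and for 15 without both replicates numbered 1 (none called before), some of which had lain near the median, such as RPS21 at -0.38. In the other settings run it changed for at most 3. The following values are for the members singled out by the naming rule. With GC and transcript length trends removed, with or without the block, log2 fold changes were 0.0073 for RPL26L1, 0.13 for RPL8, 0.082 for RPS2, 0.043 for RPS20, 0.091 for RPS24, 0.083 for RPS4X and 0.028 for RPS7. With coding length they were 0.0075 for RPL13, 0.097 for RPL8, 0.031 for RPS24 and 0.048 for RPS4X. RPL4 was at -0.048 after quantile normalization and RPL8 at 0.00091 with equal upper quartiles. Leaving out libraries gave -0.47 to 0.070 for RPL36AL, -0.075 to 0.18 for RPL8, -0.23 to 0.022 for RPS2, -0.33 to 0.083 for RPS20, -0.26 to 0.055 for RPS24, -0.35 to 0.00061 for RPS27A, -0.081 to 0.033 for RPS4X and -0.30 to 0.098 for RPS7.

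With 3 libraries a tag, differences as small as that of RPL3 lie at the limit of what passes. The labels do not say whether same-numbered libraries came from the same culture. It is therefore not known whether the fit with or without the replicate block suits these libraries better.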
